A study of Sus scrofa with 24 samples.

Results

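Chemokines and colony-stimulating factors were followed in porcine preadipocytes, the fibroblast-like precursors of fat cells, as they were driven to differentiate in culture. The genes were CXCL8, CXCL2, CXCL12, CXCL14, CCL2, CCL5, CCL20, CSF1, CSF2 and CSF3, taken by symbol from the authors' table of FPKM (fragments per kilobase of transcript, scaled to the number of mapped fragments). Rows were found for 9 of the 10 symbols among the 25462 genes of the table, and the expression of CCL20 was not analysed here. All 9 were among the 16135 genes tested. The list was selected on depot differences already known from these libraries, those of CXCL8 on days 2 and 4 and of CSF2 on day 8. Differences of the listed genes between depots on days 2, 4 and 8 are therefore given as a description, with no p. The interaction, the change in IMF minus that in BF, contains these same differences and is given without a p as well. Intervals of CXCL8 and the late interval of CSF2 include the levels on which the list was selected, and they too carry no p.

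Cells came from 6-day-old Yorkshire piglets, either from back fat under the skin (BF) or from fat within the longissimus dorsi muscle (IMF). Each depot gave 3 libraries on each of days 0, 2, 4 and 8, 24 libraries in 8 groups, written as BF-0d to IMF-8d. Both depots were treated alike, with induction medium holding IBMX, dexamethasone and insulin up to day 2, medium with insulin from day 2 to day 4, and growth medium after that. Day 2 groups had thus received only induction medium, and dexamethasone, a glucocorticoid that dampens many inflammatory genes, was in the medium only up to day 2. The cells were collagenase digests grown on plastic, and no sorting step was described. The labels do not tie replicate numbers to piglets, so p-values measure the spread between these libraries, which may be technical.

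FPKM keeps no read counts, so the depth behind each value is unknown and a value of 0 is described as listed at 0. Total FPKM per library lay between 307967 and 385768, and the listed genes together took between 0.108 and 3.35% of it. The 11 stromal markers in the table summed to 13598 to 14863 FPKM in BF-0d and 3993 to 6110.5 FPKM in BF-4d, and to 14234 to 14491 FPKM in IMF-0d and 7362 to 8425 FPKM in IMF-8d. COL1A1, a collagen chain, had means between 676 FPKM in BF-4d and 6135 FPKM in IMF-0d, whereas CD34 and the preadipocyte marker DLK1 did not exceed 2.30 and 0.529 FPKM. The sums were mostly the collagens COL1A1, COL1A2 and COL3A1, with medians of 4288, 3975 and 1867 FPKM over the 24 libraries. Not all markers fell with them. PDGFRA, PDGFRB and LUM were highest in BF-2d replicate 1, BF-4d replicate 2 and BF-8d replicate 3. Of the 11, 1 rose and 1 fell from BF-0d to BF-2d (18.2% beside 6.59% of all tested genes). The part of these shifts in the results was not tested. Adipocyte markers summed to 89.9 to 92.2 FPKM in BF-0d and 335 to 690 FPKM in BF-8d, and to 115 to 120 FPKM in IMF-0d and 154 to 200 FPKM in IMF-8d. Most of that rise was LPL, lipoprotein lipase, and from IMF-4d to IMF-8d LPL rose while 3 of the 8 tested adipocyte markers fell (CEBPA, SCD and FASN). Together 50.0% of the 8 were called over that interval, beside 7.25% of all tested genes. ADIPOQ (adiponectin) stayed at or below 0.230 FPKM in all libraries. Of the immune markers, 16 of 17 were in the table and 5 were listed at 0 in all libraries, among them LYZ, C1QA, CD3E and MS4A1. PTPRC (CD45, carried by all leukocytes) did not exceed 0.00835 FPKM. The immune list summed to 59.5 to 133 FPKM, most of it the row paired by identifier with CD79A, a B cell gene, at 47.9 to 129.9 FPKM. With MS4A1 at 0 and PTPRC near it, that pairing is in doubt. Of the 7 tested immune markers 2 rose from BF-4d to BF-8d (TYROBP and CD86; 28.6% beside 2.93% of all tested genes) and 2 from IMF-4d to IMF-8d (TYROBP and S100A8; 28.6% beside 7.25%). From BF-0d to BF-2d 1 of the 7 was called lower (14.3% beside 6.59%). CD86 lay between 1.74 and 17.1 FPKM and was highest before induction, in BF-0d replicate 2. TYROBP, a myeloid adaptor, stood at 6.40, 6.14 and 6.76 FPKM in BF-8d and at 9.13, 5.47 and 4.74 FPKM in IMF-8d against at most 2.06 FPKM in any other library. S100A8, a myeloid calcium-binding protein, stood at 2.55, 2.52 and 2.39 FPKM in BF-8d, at 2.72, 1.63 and 0.770 FPKM in IMF-8d and at 2.45 FPKM in BF-4d replicate 3, with at most 0.676 FPKM elsewhere. Of the 9 myogenic markers 8 did not reach 1 FPKM, 4 of them at 0 in all libraries, among them MYF5 and MYOD1. The exception was DES, desmin, an intermediate filament of muscle cells, which stood at 29.6, 36.2 and 45.3 FPKM in IMF-0d, at 3.03 to 4.56 in IMF-2d, at a mean of 11.7 in IMF-4d and at 1.27 to 2.22 in IMF-8d, against 4.50 to 4.88 in BF-0d and at most 0.0885 FPKM in BF-4d and BF-8d. DES was called higher in IMF on all 4 days and fell from IMF-4d to IMF-8d by 2.24 (adjusted p = 7.42e-06). The 7 endothelial markers in the table summed to 1.21 to 6.86 FPKM, mostly PECAM1. The part of cells that carry any of these markers in the results was not tested. In these bulk libraries a change in the share of cells of a type and a change in RNA per cell cannot be told apart.

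A pair of subcutaneous libraries stood apart from their groups. BF-2d replicate 3 lay at or close to BF-0d for CSF1, CSF2 and CSF3, and between BF-0d and the other BF-2d libraries for CXCL8, CXCL2, CXCL14 and CCL5. BF-4d replicate 3 lay within the range of BF-8d for CXCL2, CCL2 and CSF3. Values without these libraries are given beside the results they moved most, and leaving out both together was chosen after seeing the data.

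Chemokines are small secreted proteins that bind G protein-coupled receptors and direct the movement of leukocytes and progenitor cells. CXC chemokines with an ELR motif, such as CXCL8 and CXCL2, act mainly on neutrophils, CC chemokines such as CCL2 and CCL5 on monocytes and T cells. Colony-stimulating factors drive the survival and maturation of myeloid cells, CSF1 those of macrophages, CSF2 those of granulocytes and macrophages, CSF3 those of neutrophils. Adipose stromal cells are known sources of several of them, and many are classical targets of NF-kappaB and AP-1, transcription factors that act downstream of interleukin 1 and tumour necrosis factor.

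Upstream sequence is shown for CXCL8 and CXCL2, which had the highest correlation of any pair of listed genes over the 24 libraries, and for CSF2, which was nearly confined in the table to late BF libraries. Each sequence is the 200 bases before the RefSeq gene start on Sscrofa11.1, written 5′ to 3′ in the direction of the gene. Capitals mark matches to the motifs GGNNTTTCC (NF-kappaB type), TGANTCA (AP-1 type) and TTGCNNAA (C/EBP type), each searched on both strands. CXCL8 is on the plus strand (window chr8:69932446-69932645), CXCL2 on the plus strand (chr8:70157053-70157252) and CSF2 on the plus strand (chr2:134354524-134354723).
CXCL8: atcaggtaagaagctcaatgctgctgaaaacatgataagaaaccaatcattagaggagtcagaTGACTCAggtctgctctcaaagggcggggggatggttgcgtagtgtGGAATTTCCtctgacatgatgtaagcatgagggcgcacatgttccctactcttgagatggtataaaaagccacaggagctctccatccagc
CXCL2: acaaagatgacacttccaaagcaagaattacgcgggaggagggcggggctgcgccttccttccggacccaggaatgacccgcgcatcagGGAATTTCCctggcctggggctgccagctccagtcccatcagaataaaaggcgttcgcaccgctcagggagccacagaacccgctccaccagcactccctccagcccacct
CSF2: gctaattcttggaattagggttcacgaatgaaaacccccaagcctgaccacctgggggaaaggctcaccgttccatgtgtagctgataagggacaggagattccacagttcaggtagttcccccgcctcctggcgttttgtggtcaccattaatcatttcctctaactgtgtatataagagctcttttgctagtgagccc

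CXCL8 and CXCL2 carried the same 9 letters, GGAATTTCC, at 91 to 83 bases before the CXCL8 start and 111 to 103 bases before the CXCL2 start. The genes searched were CXCL8, CXCL2, CXCL12, CXCL14, CCL2, CCL5, CCL20, CSF1 and CSF2, which are not the same 9 as those with expression values. In 250-base windows GGNNTTTCC was found upstream of 5 of these 9 (CXCL8, CXCL2, CCL5, CCL20 and CSF1) and in 5.26% of 19556 gene windows searched the same way. TGANTCA was found upstream of 3 of the 9 (CXCL8, CXCL14 and CSF1; 5.27% of all windows) and TTGCNNAA upstream of 2 (CCL5 and CCL20; 8.22%). None of these motifs was matched in the window of CSF2. A match is a string of letters and says nothing of binding in these cells.

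CXCL8 (ENSSSCG00000008953, chromosome 8, 69932646 to 69935861), the interleukin 8 gene and a main neutrophil attractant, had the widest range of the listed genes. In BF cells its 3 libraries stood at 8.44, 7.79 and 10.8 FPKM on day 0, at 438, 588 and 77.3 on day 2, at 543, 527 and 8229 on day 4 and at 2666, 4991 and 4328 on day 8. In IMF cells they stood at 0.630, 0.812 and 0.756 FPKM on day 0, at 3.57, 6.81 and 2.31 on day 2, at 0.893, 0.434 and 1.29 on day 4 and at 236, 289 and 192 on day 8. The BF libraries lay above the IMF libraries on every day without overlap. In BF-4d replicate 3 CXCL8 was the gene with the highest FPKM of the whole library, and in the BF-8d libraries it ranked between 4 and 9. The group means fell in the order BF-8d, BF-4d, BF-2d, IMF-8d, BF-0d, IMF-2d, IMF-4d and IMF-0d, and neighbours overlapped in their libraries from BF-8d down to IMF-8d.

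On the log2(FPKM + 1) scale, used for all differences below, CXCL8 was higher in BF-2d than in BF-0d by 4.78 (SE 0.77, limma). The later BF intervals gave 2.29 (SE 0.77) and 1.54 (SE 0.77), neither past the threshold, which asks for an adjusted p under 0.01 with a difference of at least 1. Without BF-2d replicate 3 the difference of CXCL8 from day 0 to day 2 was 5.68. Without BF-4d replicate 3 that from BF-2d to BF-4d was 0.97 and that from BF-4d to BF-8d was 2.85. In IMF cells the difference of CXCL8 from day 0 to day 2 had a 95% interval of -0.12 to 3.12, and the later IMF intervals gave -1.42 and 7.01 (SE 0.77). The depots differed in their change of CXCL8 from day 4 to day 8 by 5.47 (SE 1.10), which was 4.16 without BF-4d replicate 3. Between depots, IMF minus BF, CXCL8 stood at -5.80 on day 2, at -9.50 on day 4 and at -4.03 on day 8, and at -6.70 on day 2 and -8.19 on day 4 without BF-2d replicate 3 and BF-4d replicate 3 respectively. On day 0 the difference of -2.52 missed the threshold (adjusted p = 0.0343) although the libraries did not overlap, and it passed without BF-4d replicate 3 (adjusted p = 0.00155), which entered only through the shared spread.

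CXCL2 (ENSSSCG00000008959, chromosome 8, 70157253 to 70159145), a neutrophil attractant of the GRO group, followed CXCL8 on a narrower scale. It belongs to a family of closely similar copies, so reads may have been split between them and its levels are uncertain to that extent. Its BF libraries stood at 49.9, 42.3 and 40.8 FPKM on day 0, at 321, 502 and 263 on day 2, at 243, 186 and 1541 on day 4 and at 353, 2233 and 969 on day 8. Its IMF libraries stood at 7.48, 6.71 and 6.24 FPKM on day 0, at 29.0, 52.2 and 20.3 on day 2, at 12.2, 13.2 and 13.3 on day 4 and at 167, 187 and 176 on day 8. The BF libraries were higher on every day without overlap, BF-4d replicate 3 again lay far above the other BF-4d libraries, and replicates of BF-8d spread more widely than those of IMF-8d.

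CXCL2 rose from BF-0d to BF-2d by 2.95 (SE 0.61, adjusted p = 0.00105) and from IMF-4d to IMF-8d by 3.67 (SE 0.61, adjusted p = 1.27e-04). From BF-4d to BF-8d the difference was 1.15 (adjusted p = 0.204), and without BF-4d replicate 3 it was 2.10 and past the threshold (adjusted p = 0.00327). From IMF-0d to IMF-2d it was 2.06 (adjusted p = 0.0441), which passed without BF-4d replicate 3 (adjusted p = 0.00445). On day 0, before induction, CXCL2 was lower in IMF by -2.54 (SE 0.61, adjusted p = 0.00736), a call kept in 15 of 24 fits that left out a library, with adjusted p between 0.0102 and 0.0311 where it was lost. Those 9 fits left out any of the 6 day 0 libraries or replicate 1 of IMF-2d, IMF-4d or IMF-8d. The depot differences on days 2, 4 and 8 were -3.43, -4.89 and -2.37. The difference on day 4 was -3.94 without BF-4d replicate 3, and that on day 8 was -1.73 without BF-8d replicate 2.

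**Figure D1:**
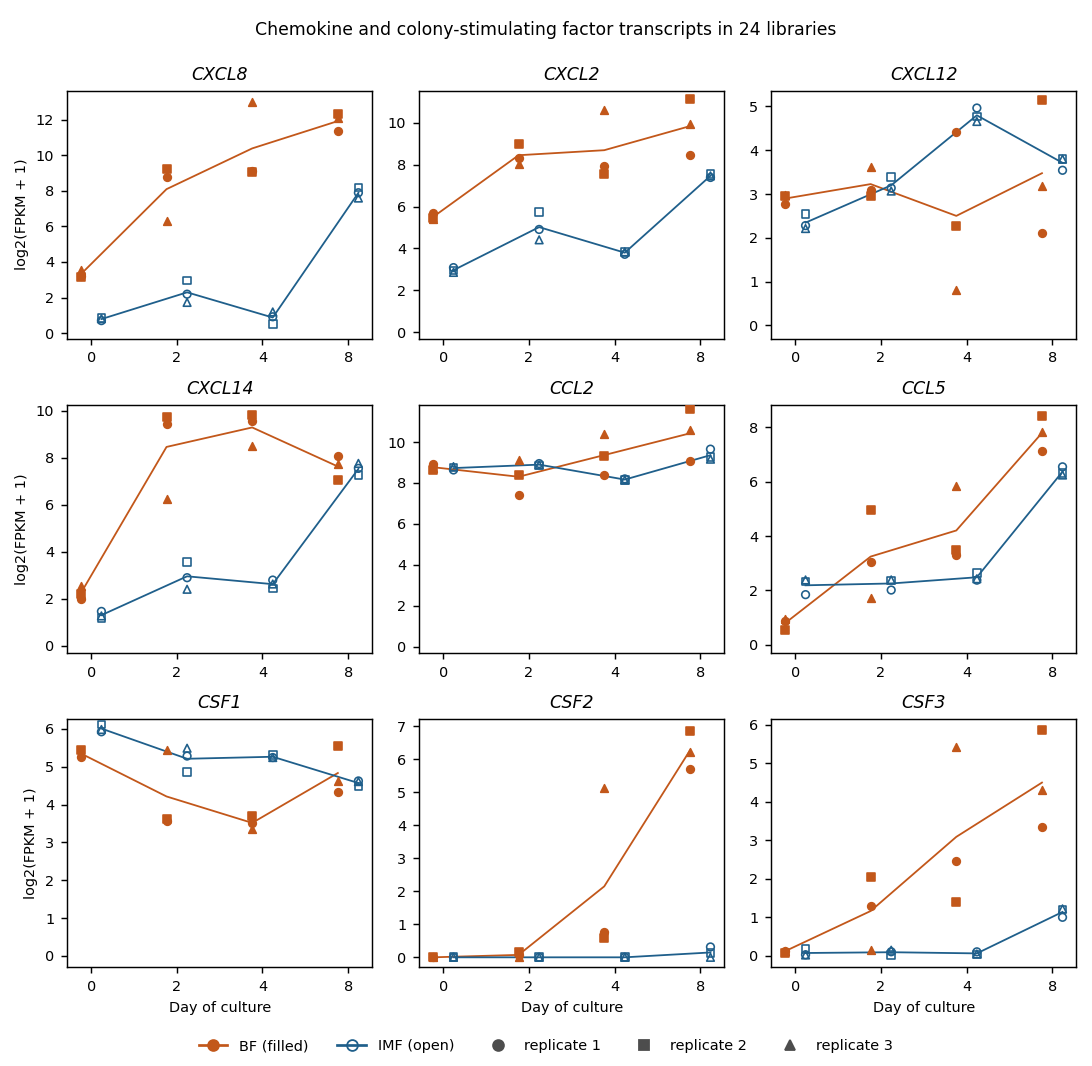
Each panel plots log2(FPKM + 1) of a gene against the day of culture (0, 2, 4 and 8) in the 24 libraries, BF filled and IMF open, with the marker shape giving the replicate and lines joining the group means. CXCL8, CXCL2 and CXCL14 rise most from day 0 to day 2 in BF and from day 4 to day 8 in IMF. In IMF they are also higher on day 2 than on day 0, by less and without overlap. CSF2 is raised in BF libraries alone, and BF-2d replicate 3 and BF-4d replicate 3 (triangles) lie away from the other replicates in several panels.

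The ratio of CXCL8 to CXCL2 in FPKM, which compares levels per length within a library, was below 1 in 13 libraries and above 1 in 11. It lay between 0.0328 and 0.130 in IMF cells up to day 4 and between 0.169 and 0.266 in BF-0d. The ratio was 1.09 to 1.55 in IMF-8d and reached 7.55 in BF-8d replicate 1. Within BF-2d, replicates 1 and 2 stood at 1.36 and 1.17 and replicate 3 at 0.294, near the day 0 libraries. Across the 24 libraries log2(FPKM + 1) of CXCL8 and CXCL2 correlated at Pearson's r = 0.97, and at 0.806 after subtraction of the group means, where CXCL2 with CSF3 stood higher at 0.911. Libraries of a group share depot and day, and the values are a description with no p.

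**Figure D2:**
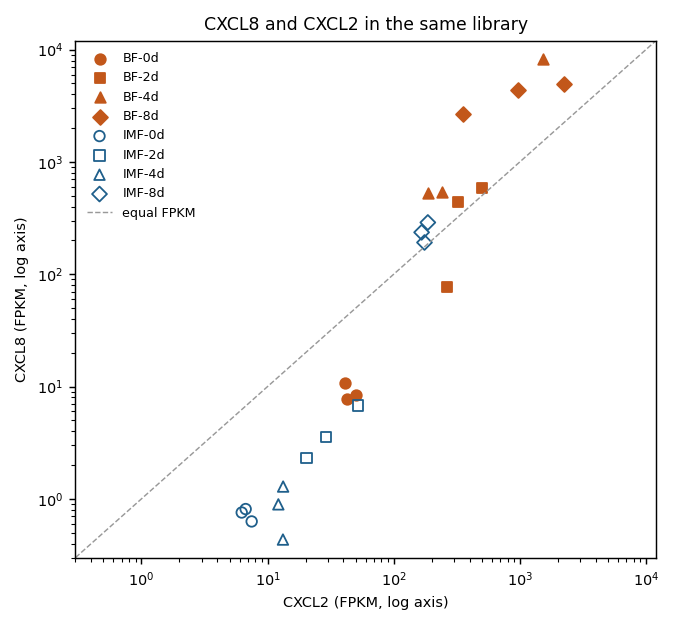
CXCL8 (vertical, FPKM, log axis) is plotted against CXCL2 (horizontal, FPKM, log axis) in the 24 libraries, coloured by depot and shaped by day, with a dashed line at equal FPKM. The points follow a line steeper than that of equal FPKM, from 0.434 FPKM of CXCL8 in IMF-4d replicate 2 to 8229 in BF-4d replicate 3, and the IMF-8d libraries lie below those of BF-2d on the CXCL2 axis and between BF-2d replicate 3 and the other BF-2d libraries on the CXCL8 axis.

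CXCL14 (ENSSSCG00000014310, chromosome 2, 137803988 to 137813118), a chemokine without the ELR motif that is made by epithelial and stromal cells, had its largest rise earlier in BF than in IMF. The BF libraries stood at 2.92, 3.60 and 4.87 FPKM on day 0, at 688, 848 and 74.5 on day 2, at 753, 904 and 362 on day 4 and at 268, 133 and 215 on day 8. Its IMF libraries stood at 1.76, 1.26 and 1.42 FPKM on day 0, at 6.46, 10.9 and 4.30 on day 2, at 5.96, 4.44 and 5.19 on day 4 and at 187, 155 and 216 on day 8. The depots were apart on days 0, 2 and 4 and overlapped on day 8, where the difference was -0.10.

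From BF-0d to BF-2d CXCL14 rose by 6.22 (SE 0.60, adjusted p = 4.38e-07), the largest change of a listed gene over that interval, and by 7.34 without BF-2d replicate 3. From IMF-4d to IMF-8d it rose by 4.91 (SE 0.60, adjusted p = 4.41e-06). From BF-4d to BF-8d the difference was -1.66 (SE 0.60, adjusted p = 0.0577), which passed the threshold without BF-2d replicate 3 (adjusted p = 8.00e-04). The difference from IMF-0d to IMF-2d, 1.65 (adjusted p = 0.101), also passed without that library (adjusted p = 0.00171). IMF changed relative to BF by -4.57 over days 0 to 2 (SE 0.84) and by 6.57 over days 4 to 8 (SE 0.84). The earlier interaction of CXCL14 was past the threshold with all libraries but not with only the compared libraries fitted, and was -5.68 without BF-2d replicate 3. IMF minus BF was -5.51 on day 2, or -6.62 without that library, and -6.67 on day 4.

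CXCL12 (ENSSSCG00000034973, chromosome 14, 91516383 to 91543857), stromal cell-derived factor 1, which retains haematopoietic and stromal progenitors through CXCR4, did not follow the others. Its BF libraries stood at 5.80, 6.74 and 6.83 FPKM on day 0, at 7.52, 6.79 and 11.4 on day 2, at 20.4, 3.81 and 0.761 on day 4 and at 3.29, 34.4 and 8.04 on day 8. Its IMF libraries stood at 3.85, 4.85 and 3.63 FPKM on day 0, at 7.80, 9.49 and 7.38 on day 2, at 30.2, 26.3 and 24.2 on day 4 and at 10.6, 12.9 and 12.9 on day 8. The IMF replicates were tight and highest on day 4, whereas the BF replicates of days 4 and 8 spread widely and overlapped those of every other BF day. CXCL12 was called over 0 of the 6 intervals within a depot (limma), the smallest adjusted p being 0.205. From IMF-2d to IMF-4d, where the libraries did not overlap, the difference of 1.60 had an adjusted p of 0.472 with all libraries in the fit. With only the IMF-2d and IMF-4d libraries fitted the adjusted p was 0.00551. On day 4 CXCL12 was higher in IMF by 2.30, and by 1.45 and no longer past the threshold without BF-4d replicate 3. CXCL12 also dropped below the threshold on day 4 without BF-4d replicate 2 or any IMF-4d library, at 2.18 to 2.37. Its correlations with the other listed genes over the 24 libraries lay between -0.154 and 0.187.

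CCL2 (ENSSSCG00000017723, chromosome 12, 40798109 to 40800013), monocyte chemoattractant protein 1, was high from the start. On day 0 its libraries stood at 485, 399 and 429 FPKM in BF and at 397, 429 and 445 in IMF, a depot difference of -0.04 (95% interval -1.06 to 0.97, adjusted p = 0.991). In BF it then stood at 169.8, 329 and 559 FPKM on day 2, at 334, 642 and 1323 on day 4 and at 541, 3117 and 1540.2 on day 8. In IMF it stood at 493, 463 and 471 on day 2, at 293, 284 and 282 on day 4 and at 804, 612 and 572 on day 8. In both depots its highest level was on day 8, and it was called in 0 of the 6 intervals. The nearest was IMF-4d to IMF-8d, at 1.19 (SE 0.49, adjusted p = 0.0636), where the libraries did not overlap and which passed when only those libraries were fitted (adjusted p = 1.90e-04). Without BF-8d replicate 1 the difference from BF-4d to BF-8d, 1.06 with all libraries (adjusted p = 0.136), was 1.73 and past the threshold (adjusted p = 0.00952).

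CCL5 (ENSSSCG00000017705, chromosome 12, 39652731 to 39659121), RANTES, an attractant of T cells and monocytes, was called as rising in both depots from day 4 to day 8. In BF its libraries stood at 0.853, 0.455 and 0.919 FPKM on day 0, at 7.24, 30.2 and 2.32 on day 2, at 8.87, 10.1 and 56.3 on day 4 and at 139, 345 and 226 on day 8. Its IMF libraries stood at 2.59, 4.04 and 4.23 FPKM on day 0, at 3.04, 4.15 and 4.23 on day 2, at 4.20, 5.25 and 4.38 on day 4 and at 92.7, 79.0 and 75.0 on day 8. Intramuscular cells started above subcutaneous cells and ended below them, without overlap on either day. From day 4 to day 8 CCL5 rose in BF by 3.59 (SE 0.61, adjusted p = 5.11e-04) and likewise in IMF by 3.89 (SE 0.61, adjusted p = 7.59e-05). The interaction was 0.30 (95% interval -1.51 to 2.11). The BF rise of CCL5 lost its call with only the BF-4d and BF-8d libraries fitted (adjusted p = 0.0614), while without BF-4d replicate 3 CXCL8 and CXCL2 also lay past the threshold in both depots. CCL5 also rose from BF-0d to BF-2d, by 2.45 (SE 0.61, adjusted p = 0.00462) and by 3.21 without BF-2d replicate 3, but this call was lost without any of the BF-0d libraries or BF-2d replicate 1, and without BF-2d replicate 2 the difference was 1.60 (adjusted p = 0.0408). Without BF-4d replicate 3 the rise from BF-4d to BF-8d was 4.41.

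CSF1 (ENSSSCG00000037449, chromosome 4, 110178466 to 110198232), macrophage colony-stimulating factor, was lowest in BF on day 4, when CXCL14 was highest. The BF libraries stood at 37.0, 42.7 and 39.9 FPKM on day 0, at 10.8, 11.4 and 42.8 on day 2, at 10.4, 11.9 and 9.16 on day 4 and at 19.1, 45.8 and 23.7 on day 8. Its IMF libraries stood at 59.7, 68.4 and 62.3 FPKM on day 0, at 37.9, 28.0 and 43.9 on day 2, at 36.9, 38.5 and 36.8 on day 4 and at 23.7, 21.2 and 23.4 on day 8. BF-2d replicate 3 stood at the BF-0d level while the other BF-2d libraries had come down. With that library the difference from BF-0d to BF-2d was -1.14 (SE 0.34, adjusted p = 0.0159), and without it -1.76 and past the threshold (adjusted p = 6.85e-06). From BF-4d to BF-8d the difference was 1.32 (adjusted p = 0.0111), which passed without BF-2d replicate 3 (adjusted p = 1.92e-04). The depots differed in the change from day 4 to day 8, IMF relative to BF, by -2.01 (SE 0.49), with values between -2.27 and -1.66 when any library was left out. On day 4 IMF stood above BF by 1.75. Over the 24 libraries CSF1 correlated with CXCL14 at r = -0.875, and at -0.835 after subtraction of the group means.

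CSF2 (ENSSSCG00000023737, chromosome 2, 134354724 to 134357155), granulocyte-macrophage colony-stimulating factor, was nearly absent from the table outside the late BF groups. It was listed at 0 in all BF-0d libraries and stood at 0.0491, 0.111 and 0 FPKM in BF-2d, at 0.689, 0.486 and 33.6 in BF-4d and at 51.1, 115 and 73.2 in BF-8d. In IMF it was listed at 0 in all 9 libraries of days 0, 2 and 4 and stood at 0.243, 0.0920 and 0 FPKM on day 8. On day 8 IMF minus BF was -6.11. CSF2 was higher in BF-8d than in BF-4d by 4.11 (SE 0.70) and by 5.60 without BF-4d replicate 3, the library that held nearly all of the BF-4d signal. From BF-2d to BF-4d the difference was 2.07 (adjusted p = 0.0375) and 0.59 without that library. The interaction from day 4 to day 8 was -3.97 (SE 0.99), with IMF-4d listed at 0, so that its size depends on the pseudocount. It was -5.45 without BF-4d replicate 3 and -3.18 without BF-4d replicate 2.

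CSF3 (ENSSSCG00000017488), granulocyte colony-stimulating factor, stood at 0.0959, 0.0578 and 0.0961 FPKM in BF-0d, at 1.44, 3.15 and 0.105 in BF-2d, at 4.52, 1.61 and 41.6 in BF-4d and at 9.11, 56.7 and 18.7 in BF-8d. In IMF all libraries up to day 4 were at or below 0.122 FPKM, and those of day 8 stood at 0.996, 1.29 and 1.32. The IMF-8d libraries lay within the range of BF-2d and below every library of BF-4d and BF-8d. CSF3 was called in 0 of the 6 intervals. From BF-4d to BF-8d its difference was 1.41 (SE 0.70, adjusted p = 0.171), and 2.57 and past the threshold without BF-4d replicate 3 (adjusted p = 0.00109). Depot differences of CSF3 were -3.03 on day 4 and -3.36 on day 8, the first being -1.86 without BF-4d replicate 3. CSF2 and CSF3 correlated at r = 0.914 over the 24 libraries and at 0.866 after subtraction of the group means.

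**Figure D3:**
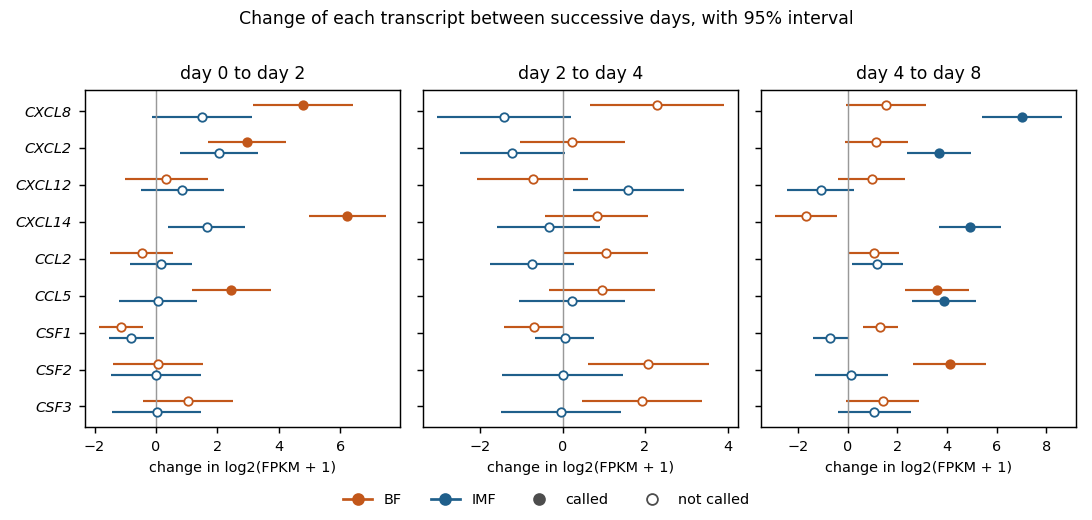
Each point is the change of a gene in log2(FPKM + 1) between successive days in BF or IMF, with the 95% interval of limma as a line; filled points passed an adjusted p under 0.01 with a change of at least 1. The filled points sit at day 0 to 2 and day 4 to 8 in BF and at day 4 to 8 alone in IMF, where CXCL8 has the largest change, 7.01. The points of CXCL8 and those of CSF2 for day 4 to 8 include levels on which the list was selected, and are descriptions only.

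Counted over the 9 listed genes tested, 4 rose and 0 fell from BF-0d to BF-2d (CXCL8, CXCL2, CXCL14 and CCL5), where 6.59% of all tested genes were called in either direction. From BF-2d to BF-4d 0 were called by limma, with 4 at an unadjusted p under 0.05 and 3.35% of all genes called. From BF-4d to BF-8d 2 rose (CCL5 and CSF2) beside 2.93% of all genes. In IMF cells 0 were called from day 0 to day 2, with 3 at an unadjusted p under 0.05 and 0.787% of all genes called, and 0 from day 2 to day 4, with 1 at an unadjusted p under 0.05 and 0.0372% of all genes called. From IMF-4d to IMF-8d 4 rose (CXCL8, CXCL2, CXCL14 and CCL5) beside 7.25% of all genes. CXCL8 in these counts, and CSF2 from BF-4d to BF-8d, are descriptions and no support. The median change of the 9 was 1.04 from BF-0d to BF-2d and 1.19 from IMF-4d to IMF-8d, where the medians of all tested genes were -0.04 and -0.07.

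Without BF-2d replicate 3 and BF-4d replicate 3, 7 of the 9 were called from BF-4d to BF-8d, with CXCL8, CXCL2, CSF1 and CSF3 added to the rises and CXCL14 to the falls, and 3 from IMF-0d to IMF-2d (CXCL8, CXCL2 and CXCL14, all higher on day 2). Over all 16135 tested genes the calls grew as well in that fit, from 472 to 890 and from 127 to 192. The intramuscular rises of CXCL2, CXCL14 and CCL5 from day 4 to day 8 were called in all 24 fits that left out a library and when only the compared libraries were fitted. When only the compared libraries were fitted, CXCL8 and CCL5 lost their calls from BF-0d to BF-2d, and CCL5 and CSF2 theirs from BF-4d to BF-8d.

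Between depots 1 of the 9 was called on day 0 (CXCL2), where 2.58% of all tested genes were. On the days that had been seen when the list was drawn up, 3 were past the threshold on day 2, 6 on day 4 and 4 on day 8, where 4.74, 11.3 and 6.96% of all genes were called, and nothing is read from these counts. Higher in IMF among them were CXCL12 and CSF1 on day 4. The interaction contains the same differences, and nothing is read from its counts either. It was past the threshold for 1 of the 9 from day 0 to day 2 (CXCL14; 2.45% of all genes), for 0 from day 2 to day 4 (4 at an unadjusted p under 0.05; 3.06% of all genes) and for 4 from day 4 to day 8 (CXCL8, CXCL14, CSF1 and CSF2; 6.39% of all genes).

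Receptors for the listed ligands were mostly at or near 0. Of 23 chemokine receptor symbols, 19 were in the table, 15 of these had no group mean of 1 FPKM, and 9 were tested. CXCR1, CXCR2 and CCR2, the main receptors of CXCL8, CXCL2 and CCL2, and CSF2RA were not analysed here. CXCR4, the signalling receptor of CXCL12, stood at 0.136, 0.177 and 6.98 FPKM in BF-4d and at or below 0.162 FPKM in all other groups, so its signal came from BF-4d replicate 3. CCR1, a receptor of CCL5, did not exceed 0.426 FPKM, and CCR6, the receptor of CCL20, did not exceed 0.0501 FPKM. Of the colony-stimulating factor receptors, CSF1R did not exceed 0.0581 FPKM, CSF2RB 0.0221 FPKM and CSF3R 0.0200 FPKM.

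ACKR3, an atypical receptor that takes up CXCL12 without G protein signalling, was the exception. Its BF libraries stood at 90.0, 88.1 and 94.9 FPKM on day 0, at 670.1, 736 and 221 on day 2, at 468, 337 and 653 on day 4 and at 587, 542 and 693 on day 8. Its IMF libraries stood at 168, 166 and 179 FPKM on day 0, at 193, 228 and 178 on day 2, at 148, 153 and 139 on day 4 and at 467, 541 and 535 on day 8. ACKR3 thus began higher in IMF, was higher in BF on day 4 without overlap, and stood at similar levels on day 8. It rose from BF-0d to BF-2d by 2.38 (SE 0.30, adjusted p = 6.66e-06) and from IMF-4d to IMF-8d by 1.80 (SE 0.30, adjusted p = 1.06e-04), and IMF stood below BF on day 2 (-1.26, adjusted p = 0.00416) and on day 4 (-1.67, adjusted p = 1.41e-04). The ACKR3 libraries of day 2 overlapped, and that call was lost without replicates 1 or 2 of BF-2d or replicates 1 or 3 of IMF-2d, at -0.95 without BF-2d replicate 2 and -1.82 without BF-2d replicate 3. The interaction from day 0 to day 2 was -2.17 (adjusted p = 0.00284). CCR7, the receptor of CCL19 and CCL21, reached 3.05, 3.45 and 3.54 FPKM in IMF-8d after at most 0.0665 FPKM in IMF-4d, a rise of 2.05 (adjusted p = 3.53e-08). ACKR4, which binds the same ligands, went the other way in IMF over that interval, by -1.55 (adjusted p = 0.00410), a call kept in 18 of 24 fits and lost without any of the 6 libraries compared (adjusted p at most 0.0159).

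**Figure D4:**
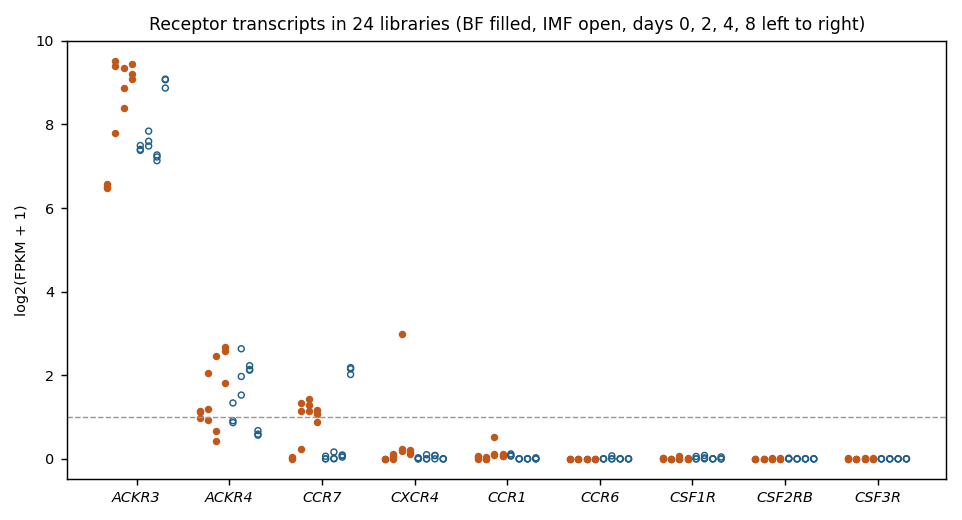
Points are log2(FPKM + 1) of receptor genes in the 24 libraries, BF filled and IMF open with days running from left to right within each depot, and the dashed line marks 1 FPKM. ACKR3 lies far above the line in all libraries, ACKR4 and CCR7 on both sides of it, and CXCR4 above it only in BF-4d replicate 3, while the receptors of colony-stimulating factors lie at or close to 0.

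Other chemokine ligands were taken from a list of 34 symbols, of which 19 were in the table and 10 were tested. Over the late intervals 3 of the 10 rose from BF-4d to BF-8d (CXCL10, CCL3L1 and CCL4; 30.0% beside 2.93% of all genes), and from IMF-4d to IMF-8d 2 rose (PPBP and CCL3L1) and CCL11 fell (30.0% beside 7.25%). CXCL10, an interferon-induced attractant of T cells, lay between 7.86 and 580.0 FPKM in BF-8d, a rise of 5.16 (SE 1.03, adjusted p = 0.00182) carried by widely spread libraries. It was 5.79 without BF-4d replicate 3, 6.74 without BF-8d replicate 1, and 3.72 and not past the threshold without BF-8d replicate 2 (adjusted p = 0.0104), and the call was also lost without BF-4d replicates 1 or 2. In IMF-8d CXCL10 stood at 17.3, 12.1 and 8.29 FPKM. CCL3L1, a CC chemokine of the macrophage inflammatory protein group, was listed at 0 in all IMF libraries up to day 4 and stood at 5.28, 5.54 and 2.93 FPKM in IMF-8d, and in BF-8d it stood at 6.14, 23.2 and 14.0. CCL4, of the same group, was lower in IMF on day 8 by -1.51 (SE 0.30, adjusted p = 5.66e-04), and without BF-8d replicate 2 by -0.95, under the threshold. CCL11, eotaxin, was the 1 ligand on this list called higher in IMF, with 1.25 for day 2 and 1.87 for day 4 (adjusted p = 0.00170 and 1.00e-05; on day 2 not without BF-2d replicates 1 or 2 or IMF-2d replicate 3), and it came down from 2.75, 2.30 and 3.51 FPKM in IMF-4d to 0.110, 0.147 and 0.0941 FPKM in IMF-8d. PPBP, the precursor of the neutrophil attractant NAP-2, rose by 1.33 from BF-0d to BF-2d (adjusted p = 1.37e-04) and was called higher in IMF-8d than in IMF-4d as well (adjusted p = 1.48e-04).

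Among ligands related to the colony-stimulating factors, IL34, which shares the receptor of CSF1, fell in BF up to day 4 and came down in IMF from day 4 to day 8. It stood at 13.7, 14.0 and 13.6 FPKM in BF-0d, at 2.45, 3.07 and 9.83 in BF-2d, at 1.21, 0.619 and 1.23 in BF-4d and at 1.65, 3.44 and 3.17 in BF-8d, and BF-2d replicate 3 again lay between its group and day 0. IL34 fell by 1.47 to day 2 and by 1.42 from day 2 to day 4 (adjusted p = 7.79e-04 and 0.00208), the later fall being 0.91 and under the threshold without BF-2d replicate 3 and also lost without BF-4d replicate 2. In IMF libraries IL34 lay between 8.90 and 12.3 FPKM up to day 2, at 16.7, 13.4 and 9.91 FPKM on day 4 and at 6.03, 5.15 and 6.35 FPKM on day 8. On day 4 it was higher than in BF by 2.81 (SE 0.30, adjusted p = 3.23e-07). KITLG, stem cell factor, rose from BF-2d to BF-4d by 1.13 (adjusted p = 0.00467), from 32.8, 13.8 and 27.1 FPKM to 58.3, 48.7 and 49.3. The change was 0.78 and not called without BF-2d replicate 2, and the call was lost too without any BF-4d library. KITLG was lower in IMF on day 4, by -1.15 (adjusted p = 0.00156), a call lost without IMF-4d replicate 2. The list held 9 symbols, of which 7 were in the table and 3 were tested. From IMF-4d to IMF-8d 1 of the 3 was called lower (33.3% beside 7.25% of all genes).

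A list of 42 NF-kappaB pathway and inflammatory cytokine genes had 37 in the table, all tested. From IMF-4d to IMF-8d 19 of the 37 rose and 0 fell, a share of 51.4% beside 7.25% of all tested genes, with a median change of 1.05 against -0.07. Among the 19 were the subunit genes NFKB1 (1.31), NFKB2 (1.87), REL (1.12) and RELB (1.28), the feedback inhibitors NFKBIA (2.30) and TNFAIP3 (2.23), and the cytokines IL1A (5.89), IL6 (4.89) and LIF (5.12). In BF cells 8 rose and 1 fell from day 0 to day 2 (24.3% beside 6.59% of all genes), and 7 rose and 1 fell from day 2 to day 4 (21.6% beside 3.35%). The late BF interval had 1 rise (TLR3, a receptor of double-stranded RNA), a share of 2.7% beside 2.93%. These BF counts of the NF-kappaB pathway and inflammatory cytokines turned on single libraries. Without BF-4d replicate 3, 11 rose and 1 fell from BF-4d to BF-8d (5.16% of all genes called in that fit), and without BF-8d replicate 1 5 rose (3.48%), while 0 were called without BF-4d replicates 1 or 2 or BF-8d replicate 2. In the fits with 0, all tested genes called numbered 295, 299 and 339 in that order, in place of 472. From BF-2d to BF-4d 4 rose and 1 fell without BF-2d replicate 3, and likewise without BF-4d replicate 3. All tested genes called fell as well, from 541 to 405 and 416. Between depots 17 of the 37 were lower and 0 higher in IMF on day 2, 17 lower and 1 higher on day 4, and 10 lower and 1 higher on day 8, shares of 45.9, 48.6 and 29.7% beside 4.74, 11.3 and 6.96% of all genes. On day 8 5 were lower without BF-8d replicate 2 and 6 without IMF-8d replicate 3. All tested genes called on day 8 also dropped without BF-8d replicate 2, from 1123 to 956, so the drop is not read as particular to this list. On day 0 5 were lower in IMF (RELB, TNFAIP3, ICAM1, VCAM1 and SOD2) and 1 was higher (16.2% beside 2.58%).

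PTGS2, cyclooxygenase 2, which makes prostaglandin precursors, had the widest differences of that list. Its BF libraries stood at 417, 119 and 60.6 FPKM on day 2, at 753, 1146 and 4825 on day 4 and at 1003, 2880.3 and 2932 on day 8, and its IMF libraries between 1.73 and 12.0 FPKM up to day 4 and at 412, 503 and 343 on day 8. PTGS2 rose by 4.70 from BF-0d to BF-2d (adjusted p = 2.37e-05; 5.32 without BF-2d replicate 3 and 3.94 without BF-2d replicate 1), by 3.47 from BF-2d to BF-4d (adjusted p = 9.42e-04; 2.06 and no longer past the threshold without BF-2d replicate 3 and BF-4d replicate 3) and by 6.73 from IMF-4d to IMF-8d (adjusted p = 2.70e-07). IL6 stood at 842, 819 and 717 FPKM in IMF-8d and at 29.0, 21.8 and 27.0 in IMF-4d, and its highest library was BF-8d replicate 2, at 3289 FPKM. C3, the central complement component, stood at 173, 174 and 183 FPKM in IMF-8d and at 56.0, 167 and 102 in BF-8d. LCN2, lipocalin 2, a carrier of iron-binding siderophores, was the 1 gene of the list called higher in IMF on days 0, 4 and 8. LCN2 was higher in IMF by 1.41 on day 0, 2.59 on day 4 and 3.90 on day 8 (adjusted p = 0.00592, 3.73e-06 and 3.66e-08; on day 0 not without any of the 6 day 0 libraries, and 1.96 on day 4 without BF-4d replicate 3), with 202, 172 and 227 FPKM in IMF-8d against 15.9, 12.7 and 9.50 in BF-8d.

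**Figure D5:**
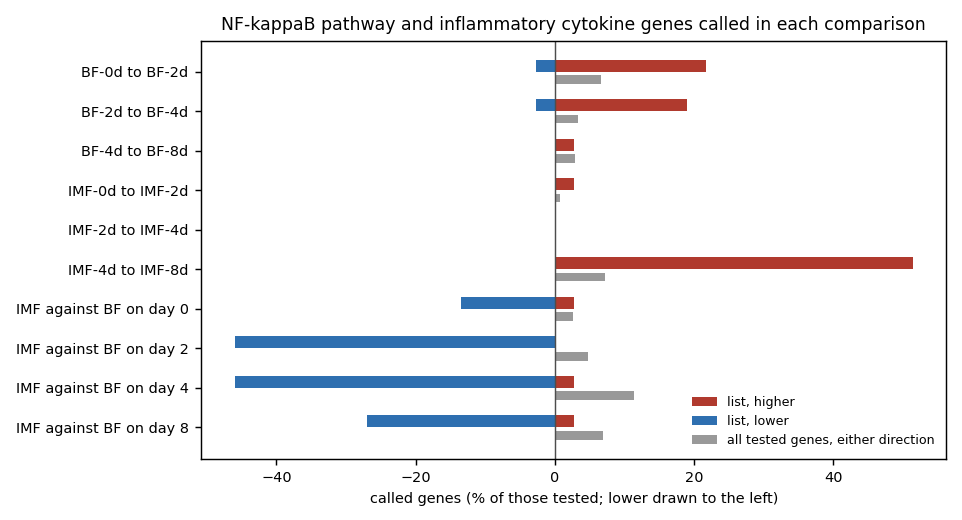
Bars give the share of the 37 tested NF-kappaB pathway and inflammatory cytokine genes called higher (to the right) or lower (to the left) in each comparison, in percent, and grey bars the share of all 16135 tested genes called in either direction. The longest bar to the right is IMF-4d to IMF-8d, with 19 genes, and the longest to the left are the depots on days 2 and 4, with 17 genes each lower in IMF.

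Genes that control decay of cytokine mRNA or form AP-1 (13 symbols, 11 tested) were called over 4 of the 6 intervals. From BF-0d to BF-2d 5 of the 11 rose and 0 fell, a share of 45.5% beside 6.59% of all genes, among them ZFP36L1, which promotes decay of AU-rich mRNA, by 2.80 (adjusted p = 3.10e-10), DUSP1, a phosphatase of MAP kinases, by 2.51 (adjusted p = 1.21e-07), and FOS by 1.79 (adjusted p = 1.59e-07). From IMF-0d to IMF-2d 2 of the 11 rose (18.2% beside 0.787% of all genes), from BF-4d to BF-8d 2 rose and 1 fell (27.3% beside 2.93%; 3 and 2 without BF-4d replicate 3), and from IMF-4d to IMF-8d 2 rose and 2 fell (36.4% beside 7.25%). ZFP36L1 also rose from IMF-0d to IMF-2d, by 1.39 (adjusted p = 8.92e-06), with an interaction of -1.41 (adjusted p = 5.11e-04). DUSP1 stood at 231, 244 and 104 FPKM in BF-2d and 37.5, 54.5 and 36.7 FPKM in IMF-2d. FOSL1, an AP-1 subunit, rose from IMF-4d to IMF-8d by 1.75 (adjusted p = 2.08e-04), from 5.13, 3.19 and 3.88 FPKM to 16.6, 15.0 and 15.8, while FOS fell by 1.21 (adjusted p = 9.69e-06). ZFP36, the founding member of the ZFP36L1 family, and ATF3, a stress-induced repressor, were lower in IMF on day 8 by -1.90 and -2.01 (adjusted p = 5.57e-04 and 7.76e-04), with BF-8d replicate 2 highest for both, at 83.3 and 20.1 FPKM. Without that library the difference of ZFP36 was -1.22 and still past the threshold (adjusted p = 0.00122).

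The genes most like each listed gene were found by Pearson's r of log2(FPKM + 1) over the 24 libraries among 10087 genes. Nearest to CXCL8 were TNFAIP6 (0.983), IL1A (0.981) and IER3 (0.981), and TNFAIP6 was also nearest to CXCL2 (0.980). TNFAIP6, a hyaluronan-binding protein induced by tumour necrosis factor, had means of 17.6 FPKM in BF-0d, 146 in BF-8d, 9.77 in IMF-4d and 57.7 in IMF-8d. CXCL14 was closest to PCK1 (0.980), an enzyme of gluconeogenesis and glyceroneogenesis, whose means were 366 FPKM in BF-2d, 172 in BF-4d, 45.2 in BF-8d and 84.1 in IMF-8d. CCL5 was closest to SLC46A2 (0.958) and TIMP1 (0.957), and CSF1 to CSPG4 (0.953), AXL (0.946) and LIMK1 (0.926). Nearest to CSF2 were ZSWIM2 (0.989), SERPINB2 (0.983) and DNAH2 (0.978), and to CSF3 B3GNT7 (0.974), RASGEF1B (0.968) and ARG1 (0.965). CXCL12 and CCL2 had no gene at 0.9 or above. These coefficients are descriptions over libraries that share depot and day.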

How the data were processed

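RNA levels of 24 polyadenylated RNA libraries were analysed from the deposited FPKM table. The authors aligned reads to Sscrofa11.1 with HISAT2, assembled and quantified transcripts with StringTie 1.3.4d (version per the submitters' processing notes), and deposited FPKM, which divides out transcript length and library size, so depth is unknown. Their DESeq2 (1.6.3) calls need counts and were not repeated. Genes with a summed FPKM above 1 over the 24 libraries were tested (16135 of 25462). log2(FPKM + 1) was fitted with limma 3.58.1 in R 4.3.3 (1 mean per group, all 24 libraries, eBayes with trend and robust, checked on simulated data). Calls needed an adjusted p (Benjamini-Hochberg, over all tested genes) under 0.01 together with an absolute difference of at least 1. The +1 understates changes of genes with low values.

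Differences are later minus earlier day or IMF minus BF, and an interaction is the change in IMF minus the change in BF. Symbols came from a reference gene table, which matched 14815 of 21271 Ensembl identifiers in the FPKM table. CCL20 and some receptors could not be paired with a row. Gene positions and upstream sequences came from RefSeq on Sscrofa11.1, the build the authors used. The members and the lists were chosen with earlier results of these data known, so counts over them are descriptions. Named from each related list were at most 6 called genes with a group mean of at least 1 FPKM, by the size of their difference, with the receptors of the listed ligands. Other genes named in sentences on a list are members of its counts and were picked after their values were seen, as were the markers named for other cell types. Alternatives were a pseudocount of 0.1, no filter, a filter on a mean of 1 FPKM, median ratio scaling, quantile normalization, a fit on only the compared libraries, no trend or robust step, a replicate block and leaving out each library in turn. The results of 1 receptor gene and the upstream sequence of 1 listed gene are not reported here.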

Additional observations from a re-analysis of the deposited data

Results flagged for a closer look

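The change in IMF minus the change in BF, on the log2(FPKM + 1) scale, was past the threshold of limma for 4 of the 9 genes. The list was chosen on depot differences that enter these values, above all for CXCL8 and CSF2, so they are given as a description with no p. From day 0 to day 2 the contrast of CXCL14 was -4.57 (SE 0.84), with all 3 BF-2d libraries at 74.5 FPKM or more and all IMF-2d libraries at 10.9 FPKM or less. It was -5.68 without BF-2d replicate 3 and was not past the threshold with only the compared libraries fitted. From day 4 to day 8 it was 6.57 for CXCL14 (SE 0.84), 5.47 for CXCL8 (SE 1.10), -2.01 for CSF1 (SE 0.49) and -3.97 for CSF2 (SE 0.99). With any library left out they lay between 6.29 and 6.97 for CXCL14, 4.16 and 6.14 for CXCL8, -2.27 and -1.66 for CSF1 and -5.45 and -3.18 for CSF2. Each group had 3 libraries, so no test for a single outlying library was run.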

How the results depend on the processing

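Of the 29 called differences of the listed genes, 14 were called under every alternative and 23 in every fit without a library, and 0 of 957 refits reversed a sign while 79 lost the call. Included in the 29 are differences that share values with the selection of the list. They are depot gaps after day 0, interactions, CXCL8 intervals and the late BF interval of CSF2, and their stability is no support. Of 90 called differences of the related genes, 40 were called under every alternative and 0 were reversed. Over all tested genes 1063, 541 and 472 were called over the BF intervals, 237, 0 and 4 with only the compared libraries fitted and 2020, 970 and 916 with a pseudocount of 0.1. The fit on only the compared libraries called 2 listed genes between BF-0d and BF-2d, 0 from BF-4d to BF-8d, 1 from IMF-0d to IMF-2d, 1 from IMF-2d to IMF-4d, 7 from IMF-4d to IMF-8d, 3 on day 0 and 1 on day 2, and by interaction 0 for days 0 to 2 and 2 for days 4 to 8. All tested genes called in that fit numbered 167, 9 and 1268 over the IMF intervals, 512 on day 0 and 107 on day 2. By interaction they numbered 132 for days 0 to 2 and 933 for days 4 to 8. A pseudocount of 0.1 called 1 from BF-2d to BF-4d and 2 on day 0, and no filter 0 on day 0 and 2 by interaction from day 4 to day 8. In the same order all genes called numbered 970 and 759 with that pseudocount, and 360 and 769 with no filter. Without BF-2d replicate 3 and BF-4d replicate 3 (added after seeing the data) the counts were 7 from BF-4d to BF-8d, 3 from IMF-0d to IMF-2d, 3 on day 0, 5 on day 2 and 3 by interaction from day 0 to day 2. Calls over all tested genes moved between fits as well, and nothing is read from these counts.

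With each library left out in turn the listed genes called were 3 to 5, 0 to 2 and 2 to 5 over the BF intervals, 0 to 1, 0 to 0 and 4 to 4 over those of IMF, 0 to 2, 3 to 4, 5 to 7 and 3 to 5 between depots on days 0, 2, 4 and 8, and 1 to 3, 0 to 1 and 2 to 4 by interaction. Called among all tested genes in those fits were 698 to 1615, 405 to 851 and 295 to 832 over the BF intervals. The IMF intervals had 69 to 166, 2 to 10 and 1079 to 1200. Between depots, in day order, 346 to 450, 445 to 1287, 1686 to 1989 and 913 to 1290 were called. Interactions had 193 to 1182, 270 to 879 and 808 to 1207. Ranges of the listed or related genes are therefore not read as particular to them. The related genes called were 15 to 20, 6 to 13, 4 to 21, 2 to 4, 0 to 0 and 25 to 30 over the intervals and 4 to 9, 17 to 27, 27 to 32 and 12 to 26 between depots. From BF-4d to BF-8d the related genes numbered 7 with all libraries, 21 without BF-4d replicate 3, 13 without BF-8d replicate 1, and 4 without BF-4d replicates 1 or 2 or BF-8d replicate 2, where all tested genes called numbered 472, 832, 562, 295, 299 and 339 in the same order. Without BF-4d replicate 3 they numbered 6 in place of 10 from BF-2d to BF-4d (all genes 416 in place of 541), and without BF-8d replicate 2 they numbered 12 in place of 19 on day 8 (956 in place of 1123). Deviations from group means correlated weakly between same-numbered libraries (r -0.246 to 0.192, above 0.1 in 5 of 30 pairs). With means of 3 libraries, this cannot exclude that the replicate numbers pair the libraries. A replicate block kept all 29 calls and 86 of the 90 of related genes. FPKM gives no depth, so no counting error can be given for low values.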
